A study of Mus musculus with 7 samples.

Results

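The interferon response genes are a list of 34 mouse genes that type I interferon is known to switch on, and they were followed here in 7 lymphoma cell lines. The list was chosen by name, though with earlier results of these data known. All 34 of its symbols matched a gene by Entrez identifier, out of 27179 genes in each count table. RNA-seq was used to profile 3 Wild-type and 4 Smchd1 null lines. Every line was grown from an end-stage lymphoma of a male Eµ-Myc mouse of the C57BL/6 strain, so the Eµ-Myc transgene, in which an immunoglobulin heavy chain enhancer drives Myc in the B lineage, was present in both groups. The null lines are labelled as homozygous for a gene trap in Smchd1, while the methods of the study name their genotype Smchd1 MD1/MD1. The Smchd1 protein binds chromatin and helps to keep genes silent. No line is labelled as treated with interferon or as infected. The labels do not say whether each line came from a separate mouse, so p-values measure only the spread between these lines.

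Interferons are secreted proteins that warn cells of infection. Type I interferon binds a receptor of the chains Ifnar1 and Ifnar2, whose kinases Jak1 and Tyk2 activate Stat proteins, among them Stat2. Together with Irf9 they form a complex called ISGF3, which binds a short DNA element, the interferon-stimulated response element (ISRE), in the promoters of the response genes. The proteins made from them sense viral RNA (Ddx58, Ifih1, Dhx58), block viral replication (the Ifit, Oas and Mx families, Rsad2, Bst2), attach or remove the ubiquitin-like protein Isg15 (Herc6, Usp18), or feed back on the pathway itself (Stat2, Irf9, Irf7). In B cells most of these genes are known to be low at rest and to rise steeply once interferon is present.

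Total counts ranged from 3626853 to 7519549 per library, so that 3 counts, taken here as the lowest level that can be shown, corresponded to 0.399 to 0.827 CPM, a unit that divides each count by the total of its library. Smchd1 itself had 248, 230.3 and 219 CPM in Wild-type replicates 1 to 3, and 25.9, 22.6, 28.6 and 28.7 CPM in null replicates 1 to 4. The fit gave a log2 fold change of -3.16 (SE 0.113, FDR = 2.18e-05), so every label matched the level of the targeted gene. Wild-type replicate 1 was the shallowest library and the only one of batch 1, sequenced as single-end reads, whereas the other 6 libraries formed batch 2 and were paired-end. The sample weights of the fit, which are low for libraries that deviate from their group, were lowest in Wild-type replicate 1 (0.246) and null replicate 4 (0.249) and highest in Wild-type replicates 2 (3.78) and 3 (3.06). These last 2 lines were unusually alike, with a median chi-square statistic per gene of 1.16 between their counts, against 2.63 to 13.0 for the other 20 pairs of libraries and 0.455 for sampling noise alone. B cell markers (6 genes) summed to 472 CPM in null replicate 4, against 815 to 1375 CPM in the other 6 lines.

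The ISRE letters were looked for in the promoters of the members, because this element is what the response genes are known to share, and silent and expressed members can then be set side by side. The search was for GAAA, any 2 bases and GAAA, on either strand, in the 300 bases from 250 before to 50 after each annotated start (RefSeq, GRCm38.p6). Of the 25 members with a promoter in that set, 13 held the letters (52.0%), against 3.99% of all 27025 genes searched. They were held by 7 of the 15 members that passed the filter on low counts and by 6 of the 10 that did not. The letters of the gamma-activated sequence, a related element (TTC, any 3 bases, GAA), stood in 4 of the 25 members and in 9.55% of all genes. A match describes the letters and does not show a bound site. In the stretches below the matches are in capitals, each stretch is written 5′ to 3′ on the strand of its gene, and overlapping matches run together. Ifit1, Ifit3 and Isg15 are shown because they are classic targets that were nearly silent in these lines, and Bst2, Stat2 and Trim30a because they were expressed. Isg15, with at most 6 counts in a library, did pass the filter and is counted above among the members that passed.
Ifit1: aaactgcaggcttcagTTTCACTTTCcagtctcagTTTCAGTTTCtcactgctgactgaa
Ifit3: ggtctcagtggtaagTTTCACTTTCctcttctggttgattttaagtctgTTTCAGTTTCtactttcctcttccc
Isg15: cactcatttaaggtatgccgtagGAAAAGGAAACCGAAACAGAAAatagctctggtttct
Bst2: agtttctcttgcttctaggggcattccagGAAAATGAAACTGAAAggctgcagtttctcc
Stat2: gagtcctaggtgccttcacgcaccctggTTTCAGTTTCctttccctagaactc
Trim30a: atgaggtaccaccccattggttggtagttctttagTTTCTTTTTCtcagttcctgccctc
The Ifit1 stretch lies at chr19:34640769-34640828 on the plus strand, with matches 94 and 75 bases before the start. That of Ifit3 lies at chr19:34583358-34583431 on the plus strand, with matches at 146 and 112 bases. That of Isg15 lies at chr4:156200860-156200919 on the minus strand and holds 3 overlapping matches, at 68, 62 and 56 bases. That of Bst2 lies at chr8:71537572-71537631 on the minus strand, with overlapping matches at 120 and 114 bases. That of Stat2 lies at chr10:128270248-128270300 on the plus strand, with a match at 212 bases, and that of Trim30a at chr7:104465205-104465264 on the minus strand, with a match at 26 bases. Expressed and silent members thus both carried the letters, and Ifit1 and Ifit3, with 2 matches each, gave a single read each over all 7 lines.

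The members covered a continuous range of levels, from well expressed to silent. Levels between genes were compared as CPM per kilobase of the gene length given in the tables, averaged over the 7 lines. Bst2, which tethers budding virions to the cell surface, was highest at 97.5 CPM per kilobase and lay above 92.2% of the genes tested. Trim25, a ubiquitin ligase that acts on the RNA sensor encoded by Ddx58, followed at 43.8 CPM per kilobase and lay above 81.5%. Ifi35, an interferon-induced protein of the cytoplasm, was at 17.2 CPM per kilobase. The next 3 members, Parp9 (11.1), Dtx3l (11.0) and Stat2 (9.43), lay just under the median of the genes tested (11.96), and their ranges over the lines overlapped, so their order is not resolved. Irf9 (4.37), Trim30a (3.35), Parp14 (3.29), Dhx58 (2.32) and Herc6 (1.501) followed, and the remaining 23 members were below 1 CPM per kilobase. Only 7 members had at least 10 CPM in every line, namely Bst2, Trim25, Ifi35, Parp9, Dtx3l, Stat2 and Parp14.

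**Figure D1:**
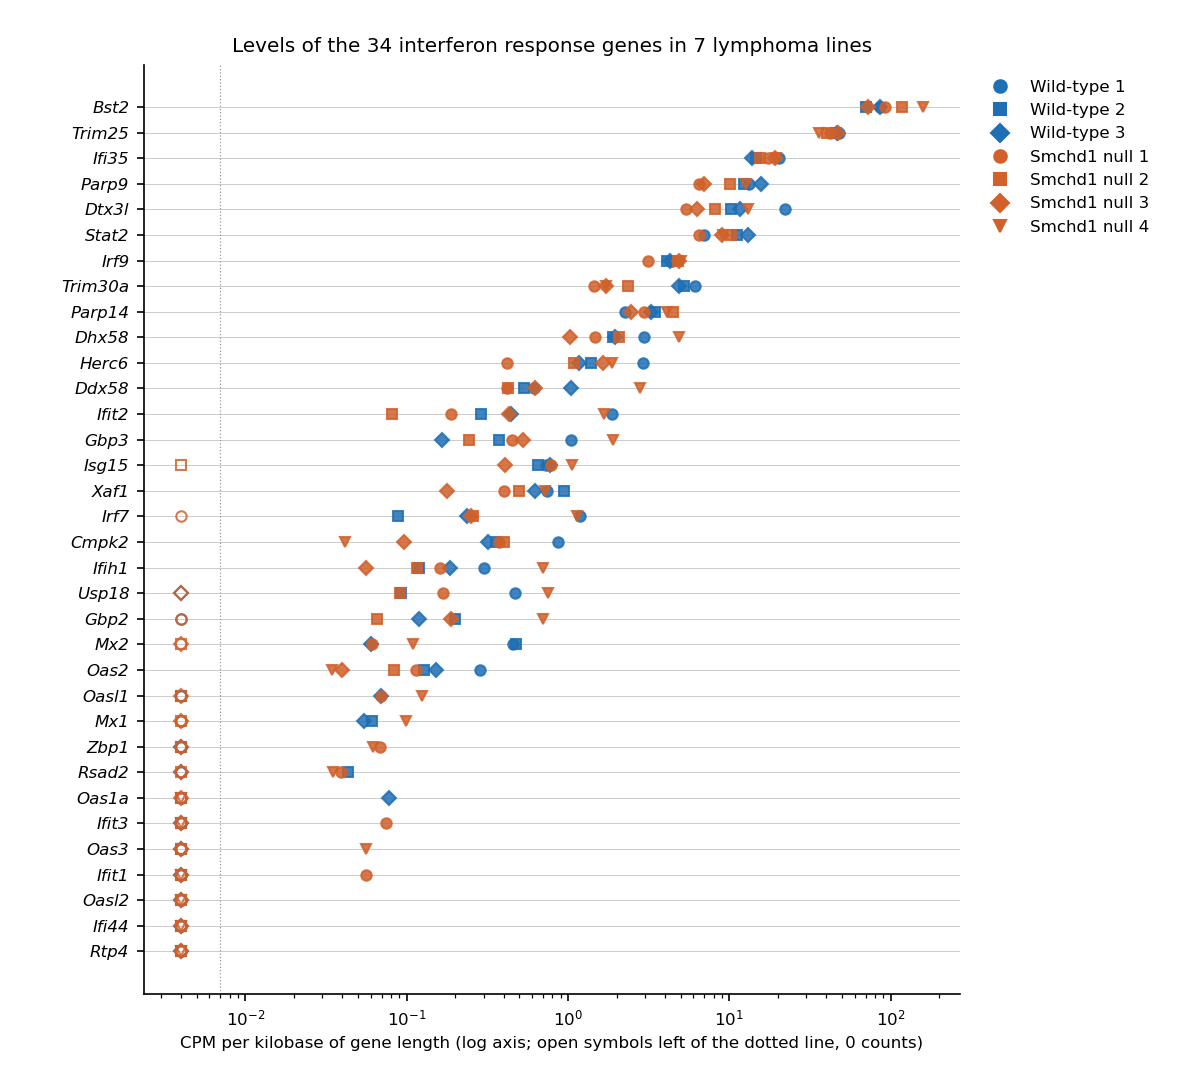
Level of each of the 34 interferon response genes in each of the 7 lymphoma lines, as CPM per kilobase on a log axis, with Wild-type lines in blue and Smchd1 null lines in orange. Open symbols left of the dotted line stand for 0 counts. Genes are ordered by their mean, from Bst2 at 97.5 to 3 genes with no count at all, and the colours are mixed in nearly every row.

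At the low end, 3 members (Oasl2, Rtp4 and Ifi44) had no count in any library and 11 had at most 3 counts in every library. These 11 were Ifit1, Ifit3, Oas1a, Oas3, Oasl1, Oasl2, Mx1, Rsad2, Zbp1, Rtp4 and Ifi44, most of them antiviral effectors. Ifit1 and Ifit3, which encode RNA-binding antiviral proteins, each gave 1 count, in null replicate 1. Rsad2, which encodes viperin, gave 1 count each in Wild-type replicate 2 and null replicates 1 and 4. Isg15 gave 2, 3 and 4 counts in Wild-type replicates 1 to 3 and 4, 0, 2 and 6 in null replicates 1 to 4. Both groups were therefore at or near the lowest level that can be shown, and no difference was detectable at this depth for these genes. Mx1 and Mx2 are annotated as transcribed pseudogenes, and the other 32 members as protein coding. Of the 16 members that did not pass the filter of 0.5 CPM in at least 3 libraries, the highest value in any library was 2.21 CPM, for Irf7 in Wild-type replicate 1.

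None of the 20 interferon genes looked for (Ifnb1, Ifng, Ifnk, Ifne, the lambda genes and 14 of the alpha cluster) had a single count in any of the 7 libraries. A gene of low level, or one made in a brief burst, could be missed at these depths.

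The comparison of null with Wild-type lines asked whether these genes change when Smchd1 is lost. It used voom with sample weights in limma, and genes with a false discovery rate (FDR) under 0.05 are called differentially expressed (DE). Of the 18 members tested, 2 were DE and lower in null lines (Trim30a and Parp9), and 0 were DE and higher. Over all 12303 genes tested, 6.85% were lower and 5.06% higher by the same rule, and counts of 2 and 0 among 18 genes are too small to set the list apart from that. At an unadjusted p under 0.05, 4 of the 18 passed, against 31.8% of all genes. The log2 fold change was below 0 in 13 of the 18 members, against 50.7% of all genes tested (10 of 18 by edgeR and by DESeq2), and its median was -0.45, against -0.01 over all genes. By voom alone, which gives every library the same weight, 0 of the 18 members were DE (2 at an unadjusted p under 0.05, against 11.3% of all genes) and the median was -0.22, and the quasi-likelihood test of edgeR likewise called 0 (2 at an unadjusted p under 0.05, against 11.5%). Both of those fits called 12 genes in all, or 0.0975% of those tested. Without Wild-type replicate 1 and null replicate 4 the median was -0.50, 15 of 18 members were below 0 and 1 member, Trim30a, was DE.

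**Figure D2:**
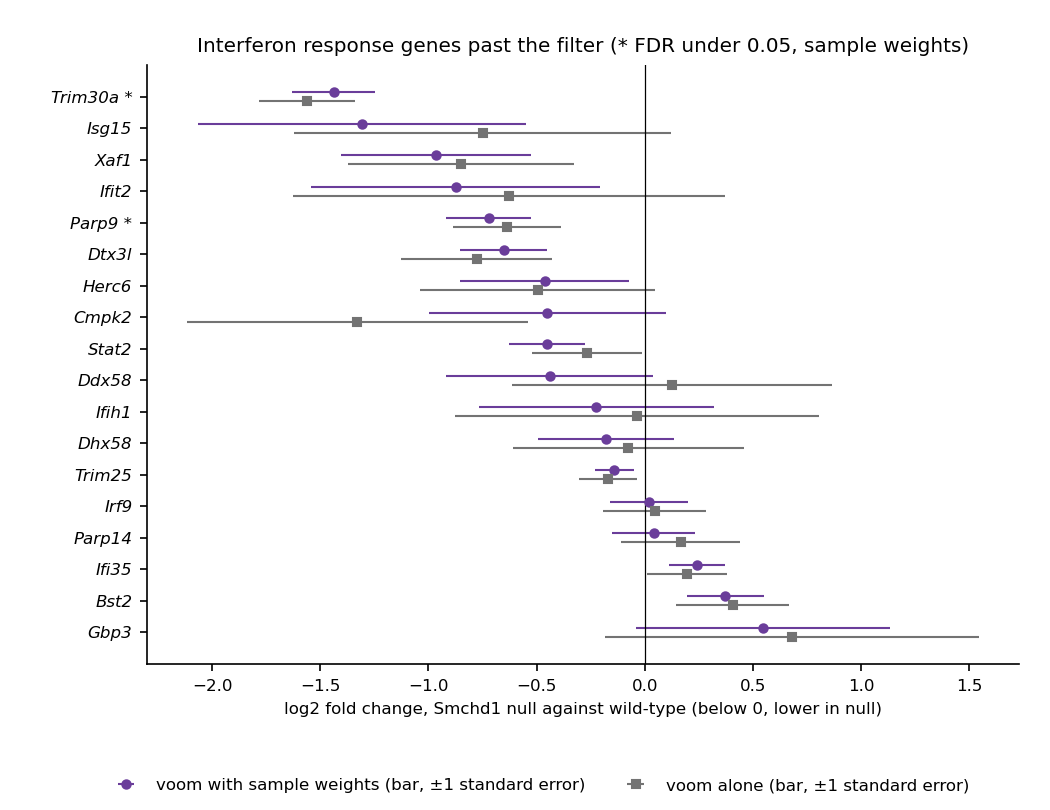
Log2 fold change of the 18 members past the filter, Smchd1 null against Wild-type lines, with bars of 1 standard error either side, by voom with sample weights (purple) and voom alone (grey). Trim30a sits furthest from 0 in both fits, at -1.44 and -1.56, and the bars of Isg15, Ifit2, Cmpk2, Ifih1 and Gbp3 are wide.

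Trim30a showed the clearest difference. It encodes a TRIM family ubiquitin ligase, described in mouse as a restraint on NF-kappaB signalling, and lies on chromosome 7 at 104409025 to 104465193 (mm10). Its level was 23.2, 19.7 and 18.3 CPM in Wild-type replicates 1 to 3, and 5.48, 8.83, 6.49 and 6.52 CPM in null replicates 1 to 4. Every null line was thus below every Wild-type line, and the mean of the null lines was 33.5% of that of the Wild-type lines. The group means were 20.4 CPM (SD 2.50, n = 3) and 6.83 CPM (SD 1.42, n = 4), and the fit gave a log2 fold change of -1.44 (SE 0.191, FDR = 0.00961), or 2.71-fold lower in null lines. The 84, 120, 125, 37, 55, 42 and 49 reads behind these values leave counting error small against the gap. The direction was the same in all 18 fits tried, with log2 fold changes from -1.62 to -1.31, and the gene was DE in 12 of them. These fits share their lines, so the kept direction is no independent support. It was not DE by voom alone (log2 fold change -1.56, FDR = 0.0731) or by edgeR (-1.56, FDR = 0.0975), and leaving out either of the near-alike Wild-type replicates 2 and 3 raised the FDR to 0.576 and 0.490. Summing those 2 lines into 1 gave an FDR of 0.426. Among the 6 libraries of batch 2 alone the log2 fold change was -1.43 (FDR = 0.0111).

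Trim30a was also the only tested member whose groups did not overlap. By that measure 1 of the 18 members was lower in every null line and 0 were higher, against 6.85% and 6.35% of all genes tested. Among members that were not tested, Oas2, an oligoadenylate synthetase, had groups that did not overlap in CPM (0.492 CPM at the lowest in Wild-type lines and 0.444 CPM at the highest in null lines), but its counts were 4, 3 and 4 in Wild-type lines and 3, 2, 1 and 1 in null lines. These are too few counts to read a difference from.

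The neighbours of Trim30a were looked at after its values had been seen. The gene lies in a cluster of 10 Trim genes, of which 6 passed the filter and only Trim30a was DE. Trim34a was at 5.24, 5.25 and 6.89 CPM in Wild-type lines and 1.78, 4.82, 3.40 and 10.5 CPM in null lines (log2 fold change -0.73, FDR = 0.221). Trim12c, the most highly expressed by CPM, had a log2 fold change of -0.28 (FDR = 0.335), Trim5 of -0.20 (FDR = 0.725), Trim12a of -0.09 (FDR = 0.868) and Trim30d of -0.20 (FDR = 0.729). In each of these 5 genes the groups overlapped. Trim6 and Trim30c had no counts, Trim30b had 1 and Trim34b at most 3 in a library. The genes of the cluster are close copies of each other, and how reads that map to several places were counted is not given in the sources used here, so the split of reads among them is uncertain.

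**Figure D3:**
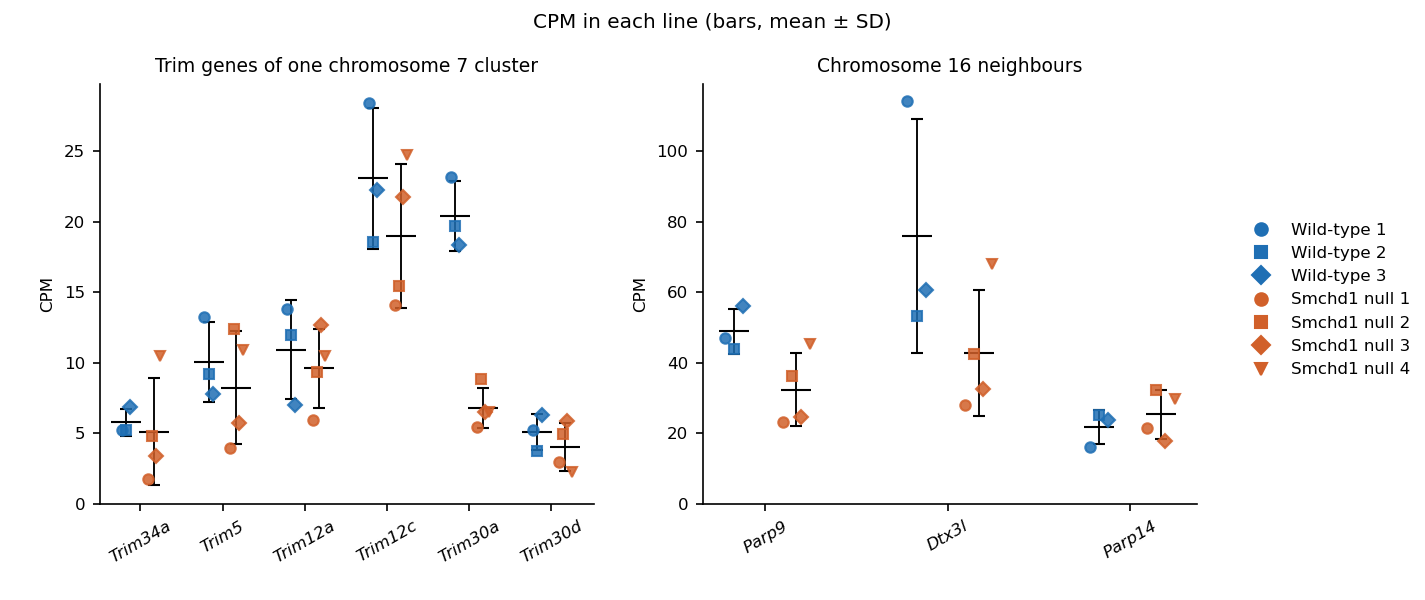
CPM of each line for the 6 Trim genes of the chromosome 7 cluster that passed the filter (left) and for Parp9, Dtx3l and Parp14 on chromosome 16 (right), with the mean and SD of each group as black bars. The 4 null lines lie between 5.48 and 8.83 CPM for Trim30a, below all Wild-type lines, whereas in every other gene shown the groups overlap.

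Parp9, Dtx3l and Parp14 sit together on chromosome 16. Parp9 and Dtx3l encode partners in a complex that modifies proteins with ADP-ribose and ubiquitin, and Parp14 encodes another ADP-ribosyltransferase. Parp9 was at 47.1, 43.8 and 56.1 CPM in Wild-type lines and 23.3, 36.1, 24.7 and 45.2 CPM in null lines. The groups overlapped, because null replicate 4 exceeded Wild-type replicate 2. The log2 fold change was -0.72 (SE 0.196, FDR = 0.0493), just inside the threshold, and Parp9 was DE in 3 of the 18 fits. It was no longer DE without Wild-type replicate 1 (FDR = 0.0555), without null replicate 4 (FDR = 0.0540) or with any other library left out. Dtx3l was at 114, 53.3 and 60.7 CPM in Wild-type lines and 28.0, 42.4, 32.6 and 68.1 CPM in null lines, so that Wild-type replicate 1 stood highest. Its log2 fold change was -0.65 (SE 0.201, FDR = 0.0696) and did not pass, and it moved to -1.13 without Wild-type replicate 2. Parp14 averaged 21.8 CPM in Wild-type lines (SD 4.81, n = 3) and 25.4 CPM in null lines (SD 6.90, n = 4), with a log2 fold change of 0.04 (FDR = 0.905).

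The annotated spans of Parp9 and Dtx3l overlap by 558 bases at their starts, so reads there may be assigned to either gene or to none. The span of Parp9 also overlaps that of Gm15564, a long noncoding RNA gene, by 5871 bases. Such overlaps were common: 10 of the 18 members past the filter overlap another gene, 3 of them a protein-coding gene. Genes of chromosome 16 as a whole moved with the library: the median deviation of its 388 tested genes from their median over the 7 lines was 0.23 on the log2 scale in Wild-type replicate 1 and 0.38 in null replicate 4. In the other 5 lines it lay between -0.0336 and 0. The part of this shift in the values of the 3 genes was not tested.

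Among the transcription factors, Stat2 was at 30.6, 49.2 and 57.0 CPM in Wild-type lines and 28.6, 44.8, 39.5 and 40.2 CPM in null lines. The groups overlapped, and the log2 fold change was -0.45 (SE 0.175, FDR = 0.121). Irf9 was at 11.9, 11.0 and 11.6 CPM in Wild-type lines and 8.44, 12.8, 13.1 and 13.4 CPM in null lines, with null replicate 1 the lowest and a log2 fold change of 0.02 (FDR = 0.948). Irf7, which amplifies the response once induced, had 8, 1 and 3 counts in Wild-type lines and 0, 3, 3 and 16 in null lines and did not pass the filter. Stat2 and Irf9 were therefore expressed in every line while classic targets such as Ifit1, Ifit3 and Rsad2 were nearly silent.

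The 3 members that sense viral RNA shared a high value in null replicate 4. Ddx58, which encodes RIG-I, was at 3.03, 2.62 and 5.13 CPM in Wild-type lines, 2.07, 2.09 and 3.09 CPM in null replicates 1 to 3 and 13.8 CPM in null replicate 4. Ifih1, which encodes MDA5, was at 0.309 to 1.65 CPM in the other 6 lines and 3.86 CPM in null replicate 4, and Dhx58, whose product regulates both sensors, at 2.47 to 7.17 CPM and 11.7 CPM. None of the 3 was DE, with log2 fold changes of -0.44 (SE 0.479, FDR = 0.568), -0.22 (SE 0.544, FDR = 0.810) and -0.18 (SE 0.315, FDR = 0.732). The sign of all 3 depended on the fit. By edgeR the values were 0.54, 0.40 and 0.06, and by voom alone they were 0.13, -0.04 and -0.08.

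Ifit2, Gbp3 and Herc6 also varied more between lines than between groups. Like Ddx58 and Ifih1, they were named as the 5 tested members with the widest range over the lines, so wide variation follows from that choice. Ifit2, the one Ifit gene with more than a single count, reached 7.44 CPM in Wild-type replicate 1 and 6.65 CPM in null replicate 4, but only 0.321 to 1.76 CPM in the other 5 lines (log2 fold change -0.87, SE 0.668, FDR = 0.405). Gbp3, a guanylate-binding GTPase, reached 2.76 CPM in Wild-type replicate 1, 5.05 CPM in null replicate 4 and 0.440 to 1.39 CPM elsewhere (0.55, SE 0.587, FDR = 0.562). Herc6, a ligase that attaches Isg15 in mouse cells, was highest in Wild-type replicate 1 at 15.4 CPM and lowest in null replicate 1 at 2.22 CPM (-0.46, SE 0.390, FDR = 0.453). For Ifit2, Gbp3 and Herc6 the same lines, Wild-type replicate 1 and null replicate 4, were the highest of their groups. For Herc6 the lead of null replicate 4 was small, at 9.84 CPM against 8.65 CPM in null replicate 3.

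Of the 3 members with the highest level per kilobase none was DE. Bst2 was at 65.9, 54.3 and 66.1 CPM in Wild-type lines and 70.5, 90.8, 55.4 and 122 CPM in null lines, with a log2 fold change of 0.37 (SE 0.178, FDR = 0.191). Trim25 was at 267, 256 and 258 CPM and at 235, 224, 263 and 201 CPM (-0.14, SE 0.0886, FDR = 0.311), and Ifi35 at 27.8, 20.01 and 18.8 CPM and at 23.5, 21.2, 25.9 and 26.5 CPM (0.24, SE 0.129, FDR = 0.235). In all 3 the groups overlapped. With 1 library left out, the log2 fold change ranged from 0.17 to 0.49 for Bst2, from -0.19 to -0.07 for Trim25 and from 0.03 (without Wild-type replicate 3) to 0.37 for Ifi35. Among the remaining tested members, Isg15 (-1.31, FDR = 0.273), Xaf1 (-0.96, FDR = 0.174) and Cmpk2 (-0.45, FDR = 0.608) rested on at most 15 counts in a library.

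Line by line, Wild-type replicate 1 and null replicate 4 stood apart from the other 5 lines. Of the 18 members past the filter, 7 were highest in Wild-type replicate 1 and 7 in null replicate 4, or 14 together. None was highest in null replicates 1 or 3, and 7 were lowest in null replicate 1. The median deviation of the 18 members from their median over the lines, on the scale of log2(CPM + 0.5), was 0.22, -0.01 and 0.01 in Wild-type lines and -0.41, -0.22, -0.31 and 0.31 in null lines. Null replicates 1 to 3 were therefore below every Wild-type line and null replicate 4 was above them all. These counts and medians were not taken over all genes tested, so they do not set the members apart from other genes. The 16 members that did not pass the filter gave 19, 17 and 13 counts together in Wild-type lines, 11, 7 and 7 in null replicates 1 to 3 and 50 in null replicate 4. In that line Irf7 (16 counts), Gbp2 (13) and Usp18 (10) made up most of them, while Ifit1, Ifit3, Oasl2, Rtp4 and Ifi44 had none. Both lines that stood apart also had the lowest sample weights, Wild-type replicate 1 was alone in its batch, and null replicate 4 had the lowest sum of B cell markers. The part of depth, batch and cell state in these levels was not tested.

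**Figure D4:**
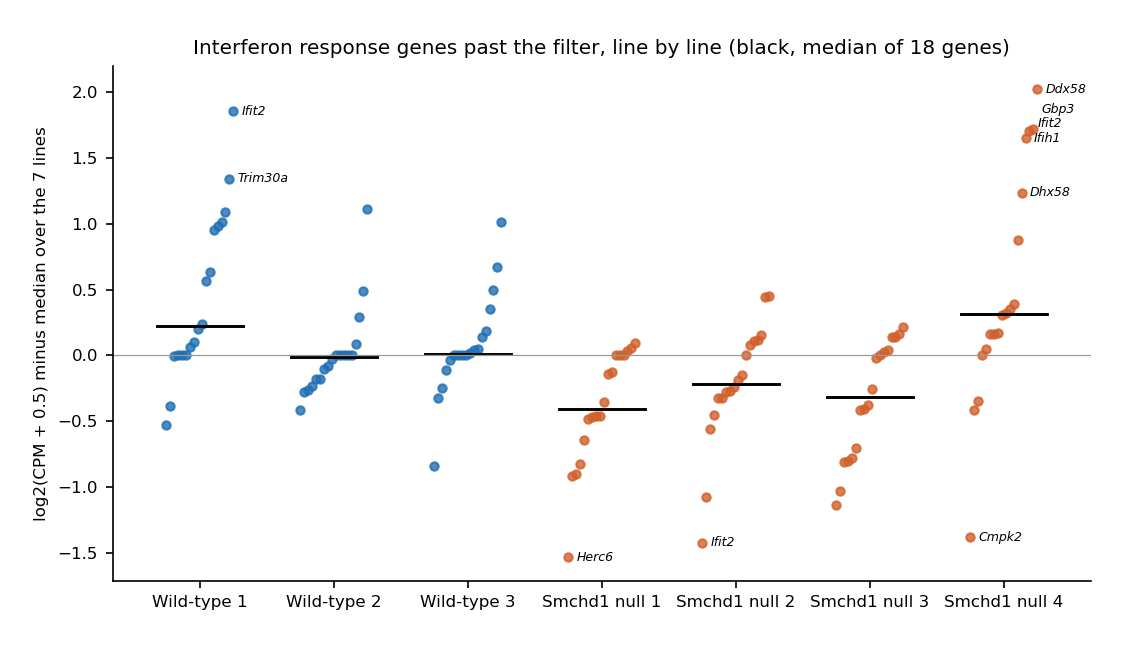
Deviation of each of the 18 members past the filter from its median over the 7 lines, on the scale of log2(CPM + 0.5), for each line, with black lines at the median. The medians of Wild-type replicate 1 (0.22) and null replicate 4 (0.31) are the highest of the 7, and genes more than 1.2 from 0 are named.

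Further chromosome-wide shifts touched single members. Genes of chromosome 3, where Gbp2 and Gbp3 lie, had a median deviation of -0.38 in null replicates 1 and 2 and 0.23 in Wild-type replicate 1, and genes of chromosome 19, where Ifit2 lies, of 0.34 and 0.48 in Wild-type replicates 2 and 3. Chromosome 7, which holds Trim30a and Irf7, had a median deviation of 0 in all 7 lines. A gene's median over the lines is itself the value of a line, so this measure tends to 0 and can miss a modest shift. Whether the shifts of chromosomes 3 and 19 enter the values of Gbp3 and Ifit2 was not tested.

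The rest of the pathway was followed with 7 further lists of 121 genes in all, of which 76 were tested. By voom with sample weights 6 were DE and higher in null lines and 6 DE and lower, beside 5.06% and 6.85% of all genes tested. In total 12 of 76 were DE, against 11.9% of all genes, which does not set the lists apart. By voom alone or by edgeR 0 were DE, and 12 and 13 of the 76 had an unadjusted p under 0.05, against 11.3% and 11.5% of all genes. Of the receptor and JAK-STAT genes, 8 of 9 were tested. By voom with sample weights 0 were DE and 3 had an unadjusted p under 0.05, against 31.8% of all genes in that fit. By voom alone and by edgeR 0 of the 8 had such a p. Jak1 was at 124, 137 and 132 CPM in Wild-type lines and 105, 104, 120 and 115 CPM in null lines, so that the groups did not overlap, but it did not pass (log2 fold change -0.31, SE 0.0881, FDR = 0.0564). Ifnar1 averaged 47.6 CPM in Wild-type lines (SD 11.1, n = 3) and 39.9 CPM in null lines (SD 15.9, n = 4). It was highest in null replicate 4 (63.6 CPM) and Wild-type replicate 1 (60.1 CPM), against 29.9 to 43.7 CPM elsewhere. Ifnar1 lies on chromosome 16, whose genes as a whole were higher in those lines, and the part of that shift was not tested. Tyk2 averaged 47.9 CPM in Wild-type lines (SD 6.74) and 58.5 CPM in null lines (SD 15.6). The receptor and its kinases were thus expressed in both groups.

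Of the other Irf genes and of the sensing and adaptor genes, 3 were DE, each higher in null lines, beside 5.06% of all genes tested. Such small counts do not set these lists apart, and none of the 3 was DE by voom alone or by edgeR. Irf3, which switches on interferon genes, was the only one of the 6 Irf genes tested that was DE, at 65.1, 54.3 and 49.0 CPM in Wild-type lines and 68.3, 81.8, 80.01 and 70.0 CPM in null lines (0.55, SE 0.106, FDR = 0.0202). The Irf genes with the highest mean CPM, Irf4, Irf2 and Irf8, were not DE, and 3 of the 6 had a log2 fold change below 0. Of 14 sensing and adaptor genes tested 2 were DE, and 5 of the 14 had a log2 fold change below 0. Myd88, the adaptor of most Toll-like receptors, was at 43.6, 35.8 and 34.7 CPM in Wild-type lines and 56.4, 54.0, 57.6 and 53.5 CPM in null lines (0.64, SE 0.0923, FDR = 0.0109). Mavs, the mitochondrial adaptor of the RNA sensors, averaged 83.5 CPM in Wild-type lines (SD 8.13, n = 3) and 112 CPM in null lines (SD 7.88, n = 4), a log2 fold change of 0.41 (SE 0.106, FDR = 0.0433). In these 3 genes the groups did not overlap, which held with null lines higher for 6.35% of all genes tested.

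Of 14 genes that restrain the response, 1 was DE and higher and 1 DE and lower, about the share of all genes (5.06% and 6.85%). Trex1, a DNA exonuclease, was at 23.4, 14.4 and 18.03 CPM in Wild-type lines and 26.2, 27.9, 38.3 and 37.5 CPM in null lines (0.89, SE 0.172, FDR = 0.0204). Rnaseh2c, a subunit of ribonuclease H, was at 69.2, 84.5 and 93.7 CPM and at 52.7, 61.2, 46.5 and 56.5 CPM (-0.68, SE 0.119, FDR = 0.0150). It lies on chromosome 19, whose genes as a whole were higher in Wild-type replicates 2 and 3, and the part of that shift was not tested.

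Among 26 further targets of type I interferon that were tested, 1 was DE and higher and 5 were DE and lower, beside 5.06% and 6.85% of all genes. Tdrd7 was the higher one, at 4.96 to 10.3 CPM in Wild-type lines and 14.7 to 45.9 CPM in null lines (0.99, FDR = 0.0478). Of the lower ones, Parp12, an ADP-ribosyltransferase (FDR = 0.0345), had only 4, 8 and 10 counts in Wild-type lines and 3, 0, 2 and 1 in null lines. It passed the filter through the Wild-type lines alone, so its call carries little weight and no fold is given. Eif2ak2, the kinase PKR that halts translation on viral RNA, was at 22.1, 36.6 and 39.7 CPM in Wild-type lines and 15.1, 24.7, 9.58 and 17.0 CPM in null lines, with null replicate 2 above Wild-type replicate 1 (-1.15, SE 0.254, FDR = 0.0297). Ifi27 was at 7.17 to 8.50 CPM and 3.11 to 7.18 CPM (-1.17, FDR = 0.0225). Tor3a and Rnf213 were DE and lower although null replicate 4 was the highest of all 7 lines for both, at 72.7 and 89.0 CPM. Of 8 interferon gamma targets tested, Irgm1 alone was DE, with means of 19.3 CPM in Wild-type lines (SD 2.05, n = 3) and 33.7 CPM in null lines (SD 12.6, n = 4) and a log2 fold change of 0.97 (SE 0.222, FDR = 0.0323). Within batch 2 alone, 10 of the 12 genes called in the pathway lists were still DE, without null replicate 4 likewise 10, and without Wild-type replicate 2 or replicate 3 there were 0. All 12 kept their direction in each of these fits, which reuse most of the lines that led to their choice, so this is no independent support. Myd88 and Rnaseh2c were the 2 that DESeq2 also called.

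Markers of T cells, natural killer cells and red cells were at or near 0. T cell markers (5 genes) summed to at most 0.532 CPM in any line, with 2 of the 5 at 0 throughout, natural killer cell markers (3) to at most 2.53 CPM and erythroid markers (3) to at most 0.798 CPM. Myeloid markers (5) summed to 4.14 to 15.7 CPM in Wild-type lines and 4.89 to 32.3 CPM in null lines. Markers of plasmacytoid dendritic cells (4), the main makers of interferon in the body, summed to 1.103 to 11.7 CPM in Wild-type lines. In null replicates 1 to 4 they summed to 0.148, 4.50, 63.9 and 56.4 CPM. Of the 4 genes, 1 passed the filter and Siglech was at 0 in every line. Endothelial and stromal markers (5) summed to 57.1 to 70.4 CPM and 63.1 to 221 CPM, and B cell markers (6) to 815 to 979 CPM and 472 to 1375 CPM. Null replicate 4 had both the lowest sum of B cell markers and the highest sum of endothelial and stromal markers. In bulk RNA of this kind, fewer cells of a type and less RNA per cell cannot be told apart, and the part of these sums in the levels of the members was not tested.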

How the data were processed

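RNA-seq libraries of 7 lines were made with the TruSeq RNA kit. According to its methods and the labels, the authors aligned reads to mm10 with Subread, summarised them by gene with featureCounts and deposited raw counts per Entrez gene with gene lengths. Strand and multi-mapping settings are not given in the sources used here. The labels also list CASAVA 1.8.2, edgeR 3.8.2 and limma 3.22.0.

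CPM is the count over the library total. Symbols, coordinates and promoters came from RefSeq tables of GRCm38.p6, the same build as mm10 (25275 of 27179 genes had a symbol, with 98.2% of counts). Genes with at least 0.5 CPM in at least 3 libraries were kept (12303 of 16882 with a count) and scaled by TMM. The fit was voomWithQualityWeights in limma 3.58.1 (R 4.3.3) with no covariates, as in the study, and the FDR is the Benjamini-Hochberg adjusted p over all genes tested. Voom alone, block weights, removal of 2 samples, edgeR 4.0.16 (quasi-likelihood), DESeq2 1.42.0, RLE scaling, other filters, leaving out each library, a replicate block and summing Wild-type replicates 2 and 3 were alternatives. The scripts were tested on simulated data.

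The genes named were Smchd1, the members called, those with groups apart, the 5 highest and the 5 most variable members, and, from each pathway list, the genes called and the 3 highest, with exceptions stated; 2 genes of the lists are not reported here and were left out of the list counts. The members and lists were chosen with earlier results of these data known.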

Additional observations from a re-analysis of the deposited data

Results flagged for a closer look

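In the 4 null lines, a value was picked out where it lay far from the other 3 by Dixon's test at its 95% critical value. Of 53 genes screened, 9 gave such a value, where chance alone gives about 2.65, and 7 of the 9 lay in null replicate 4. Only 1 of the 18 members was among them: Irf9, at 8.44 CPM in null replicate 1 and 12.8 to 13.4 CPM in the other 3. In null replicate 4, Irf8 was at 8.11 CPM (73.3 to 80.5 in the others), Lgals9, a galectin gene, at 40.6 CPM (322 to 451) and Pnpt1 at 89.0 CPM (139 to 146), while Tdrd7 was higher, at 45.9 CPM (14.7 to 17.0). The B cell genes Cd79a (100.4 CPM, 409 to 444 in the others), Cd22 (25.4 CPM, 233 to 341) and Pax5 (16.6 CPM, 64.9 to 84.9) were all low in the same line. Ms4a1 was higher in null replicate 3, at 12.8 CPM, than in the other 3 (0.321 to 0.798). The cause was not tested in any of these.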

How the results depend on the processing

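In place of 1466 genes, 384 were called by DESeq2, 12 by edgeR, 12 by voom alone, 493 with block weights, 521 after removal of Wild-type replicate 1 and null replicate 4, 222 with the replicate block and 1 with Wild-type replicates 2 and 3 summed, and between 1 and 1683 with 1 library left out (1 without Wild-type replicate 2 or without replicate 3, 443, 281 and 923 without null replicates 1, 2 and 3). In place of 2 members called lower, there was 1 by DESeq2, with no filter, with block weights or after that removal. There were 0 by edgeR, voom alone, the replicate block or the summed lines, and 0 to 1 with 1 library left out. With a minimum of 10 counts in every library, 3 of the 12 members tested were called lower, and Dtx3l joined (FDR = 0.0475). In that fit 1533 of 9522 genes were called, or 16.1%. In the pathway lists, where 12 genes were called, 0 were called by voom alone, by edgeR and with the summed lines, 4 by DESeq2 (2 of them among the 12), 4 with block weights, 3 after the removal, 2 with the replicate block (0 among the 12) and 0 to 12 with 1 library left out (all but voom alone and edgeR were chosen after seeing the data). No member was called higher under any alternative, and the median log2 fold change of the members stayed between -0.69 and -0.21. Of the 18 tested members, those whose log2 fold change turned sign, none of them called, were Ddx58 (0.54 by DESeq2, 0.54 by edgeR, 0.13 by voom alone), Ifih1 (0.39 by DESeq2, 0.40 by edgeR, 0.044 without null replicate 3), Gbp3 (-0.16 with the replicate block, -0.50 without Wild-type replicate 3), Herc6 (0.14 without null replicate 1), Ifit2 (0.14 without null replicate 2), Dhx58 (0.067 by DESeq2, 0.060 by edgeR), Irf9 (-0.0041 with a minimum of 10 counts, -0.020 after the removal) and Parp14 (-0.092 after the removal, -0.027 with block weights). With 1 library left out their ranges were -0.50 to 1.11 for Gbp3, -0.98 to 0.14 for Herc6, -0.78 to 0.044 for Ifih1, -1.92 to 0.14 for Ifit2, -0.063 to 0.20 for Irf9 and -0.25 to 0.31 for Parp14. The cause was not tested. Samples that share a replicate number were not paired: the deviations of same-numbered lines had correlations of -0.16, 0.22 and -0.21, and 1 of 3 correlated best with its own number. With the replicate block Trim30a was at -1.31 (FDR = 0.0541) and Parp9 at -0.56 (FDR = 0.187). Smchd1 was called in all 18 fits, at -3.23 to -3.02. Counts below about 10 in every library limit 16 of the 34 members, for which a several-fold difference would not be resolved.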
